A study of Mus musculus with 11 samples.

Results

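Marrow stromal cells of mice given a single intravenous injection of doxorubicin were compared with those of mice given phosphate-buffered saline (PBS). The comparison was chosen by the treatment labels alone and holds 7 of the 11 libraries of the series, 3 from the single dose (DOX1X) and 4 from PBS. All mice were female and carried Lepr-Cre;LSL-tdTomato+/-, so that Cre made from the leptin receptor gene switches on the red protein tdTomato, and cells of any type with a history of that Cre activity are sorted. Strain background is not given in the sources used here. DOX1X mice, labelled as young adults, received 1 injection of doxorubicin at 10 mg/kg, and PBS mice received 4 injections of PBS, so the number of injections differed together with the drug. No age in weeks was available here for the DOX1X or PBS mice, so whether their ages matched is not known. Cells were collected 8 weeks after treatment. The remaining 4 libraries came from mice of 8 to 10 weeks given 4 weekly injections at 5 mg/kg (DOX4X), and they entered the fit to help estimate the spread and are given as values beside some results. The design asks what a single exposure leaves behind in skeletal progenitors.

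Doxorubicin is an anthracycline that traps topoisomerase II on DNA and leaves double-strand breaks, which activate p53 and its targets. Stromal cells with a history of leptin receptor expression line the marrow sinusoids, make the niche factors Cxcl12 and Kit ligand that hold blood stem cells, and are a source of osteoblasts and marrow adipocytes. Bone-forming cells lay down collagen and secreted phosphoproteins such as osteopontin, and matrix proteases remodel what they deposit.

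Total counts ran from 29540422 to 42784036 in PBS and from 33496356 to 42002065 in DOX1X. The labels number the mice as biological replicates. The labels of PBS 4 conflict: by treatment and by library name it is a control, but its title carries the short form of doxorubicin, and it was kept as PBS. DOX1X 3 was sequenced on flow cell 2 and the other 6 libraries on flow cell 1, so this difference within DOX1X cannot be told apart from the mouse. All DOX4X libraries were on flow cell 2. The defining markers of the sorted cells were high in all 7 libraries, with Cxcl12 from 48120 to 59804 CPM, which is counts scaled to a common library total and Lepr from 3939 to 7661 CPM. Library totals were scaled by TMM factors. A mean log2 score over markers of neutrophils, monocytes and macrophages, B cells and erythroid cells was -0.94, -0.49, -0.03 and -0.65 in PBS 1 to 4, and 0.82, 0.51 and -0.36 in DOX1X 1 to 3. This averaged score was higher in DOX1X 1 and 2 than in any PBS library, and DOX1X 3 lay within the PBS range.

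The single dose left 1 gene past the threshold. Of 17838 genes tested, 1 (0.00561%) was higher in DOX1X and 0 (0%) were lower at an adjusted p under 0.05 with edgeR's quasi-likelihood test. The gene is Ighv5-17, an immunoglobulin heavy chain variable segment, which is a transcript of B cells and plasma cells and not of stroma. At an unadjusted p under 0.05, 610 genes (3.42%) lay higher and 668 (3.74%) lower, together 1278 (7.16%), where 891.9 would be expected by the threshold alone. The groups did not overlap for 567 genes (3.18%) higher and 682 (3.82%) lower. The median gene had a log2 difference of 0.0057 and an SE of 0.19, and its 95% interval reached 0.41 to either side. DESeq2 called 15 genes higher and 34 lower, and limma-voom called 1 higher and 0 lower. Without PBS 4, edgeR also called Fam20c lower (adjusted p = 0.0012), and 936 genes lay higher and 1057 lower at an unadjusted p under 0.05. After Ighv5-17, the smallest adjusted p was 0.44, so every other difference below is given as a value that did not pass the threshold. The p-values measure the spread between these mice.

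**Figure D1:**
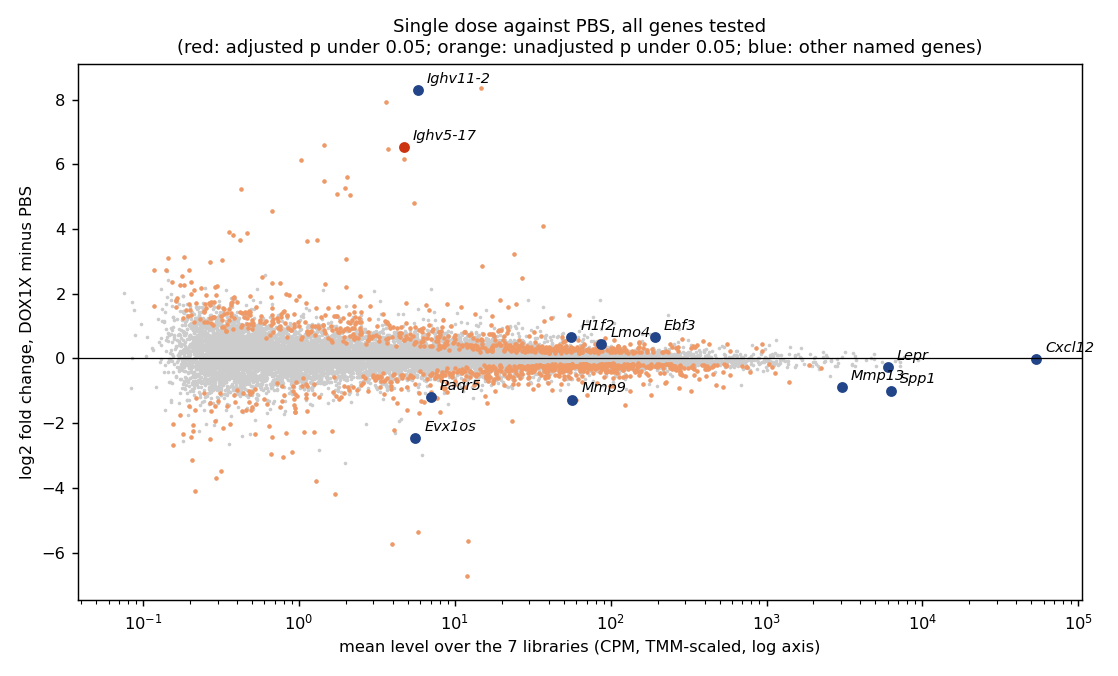
Each point is 1 of the 17838 genes tested, by its mean level over the 7 libraries (CPM, log axis) and its log2 fold change, DOX1X minus PBS. Ighv5-17 (red) is the gene with an adjusted p under 0.05. Cxcl12 and Lepr lie near 0 at high levels, and Spp1 and Mmp13 lie lower.

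Ighv5-17 is the germline segment that, once joined to D and J segments, encodes the variable part of some antibody heavy chains. It had 6, 3, 5 and 1 counts in PBS 1 to 4, and 521, 463 and 221 counts in DOX1X 1 to 3. On the CPM scale these were 0.15, 0.10, 0.16 and 0.033 in PBS, and 12.7, 14.0 and 5.81 in DOX1X. The groups lay far apart, and DOX1X 3 was the lowest of its group. The log2 fold change was 6.53 (SE 0.45, 95% interval 5.55 to 7.51), or 92.4-fold, with an adjusted p of 1.29e-04 from edgeR's quasi-likelihood test. In DOX4X, Ighv5-17 had 14, 10, 7 and 9 counts, and the difference between DOX4X and DOX1X was a log2 value of -5.24 (adjusted p = 4.93e-04, edgeR's quasi-likelihood test). The call held with each library left out in turn (log2 fold change 6.25 to 6.83, edgeR adjusted p 4.0e-05 to 0.0020). No PBS or DOX4X library held more than 14 counts, so these fits do not test how the low-count filter chose the gene. With no low-count filter, Ighv5-17 was again the 1 gene called. Of the other Ighv5 segments listed below, Ighv5-4 was tested in the main fit. The rest, such as Ighv5-12, Ighv5-6 and Ighv5-9, did not pass that filter and were not tested.

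Variable segments of a family resemble each other, and how reads that map to several places were counted is not given in the sources used here. The stretch of 90 bases below comes from GENCODE M21 transcripts (GRCm38), with bases that differ from Ighv5-17 in capitals. It is shown for Ighv5-17, its closest relative Ighv5-12, and the relatives that reached the highest levels in a DOX1X library, Ighv5-9 and Ighv5-4.
Ighv5-17: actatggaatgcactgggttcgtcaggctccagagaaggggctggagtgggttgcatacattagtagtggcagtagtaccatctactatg
Ighv5-12: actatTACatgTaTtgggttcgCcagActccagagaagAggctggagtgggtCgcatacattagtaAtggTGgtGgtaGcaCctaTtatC
Ighv5-9: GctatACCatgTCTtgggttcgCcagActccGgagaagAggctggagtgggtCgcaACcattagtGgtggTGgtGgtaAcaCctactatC
Ighv5-4: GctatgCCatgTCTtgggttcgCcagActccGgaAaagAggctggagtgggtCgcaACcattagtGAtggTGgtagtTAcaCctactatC
These relatives differ from Ighv5-17 at 17, 21 and 22 of the 90 bases. The stretch was chosen as the one in which Ighv5-12 differs most. It therefore overstates how far Ighv5-12 differs, which is 32 of 340 aligned bases in all. Over the aligned transcripts, Ighv5-12 is the closest of the 8 relatives, with 90.6% identity, and Ighv5-2 the least alike, with 82.6%. The longest run of identical bases was 87, with Ighv5-4, so a short read inside such a run would fit both. Ighv5-12 stayed at or under 0.424 CPM in DOX1X, Ighv5-6, Ighv5-15, Ighv5-16, Ighv5-2 and Ighv5-9-1 at or under 0.269 CPM. Ighv5-9 reached 5.23 CPM and Ighv5-4 1.89 CPM in DOX1X 3, while both were at or under 0.091 CPM in DOX1X 1 and 2.

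Other immunoglobulin segments were high in single libraries. Of 158 variable segments with a count in any library, 51 reached 5 CPM in at least 1 of the 7 libraries. Of these, 37 did so in 1 library and 9 in 2 libraries. The segments at 5 CPM or more in all 3 DOX1X libraries and no PBS library were Ighv5-17, Ighv11-2 and Igkv14-126, and no segment reached that level in all 4 PBS libraries. Ighv11-2 stood at 7.93, 26.5 and 5.76 CPM in DOX1X and at 0 to 0.10 CPM in PBS, and DOX4X 4 held 10.4 CPM. Igkv14-126, a kappa light chain segment, stood at 16.2, 69.4 and 16.98 CPM in DOX1X and at 0 to 0.300 CPM in PBS, and DOX4X 4 held 30.5 CPM. Their log2 differences of 8.30 (SE 1.81) and 8.35 (SE 1.93) had an adjusted p of 0.52 in edgeR's test. Ighv11-2 and Igkv14-126 were chosen here after their values were seen.

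**Figure D2:**
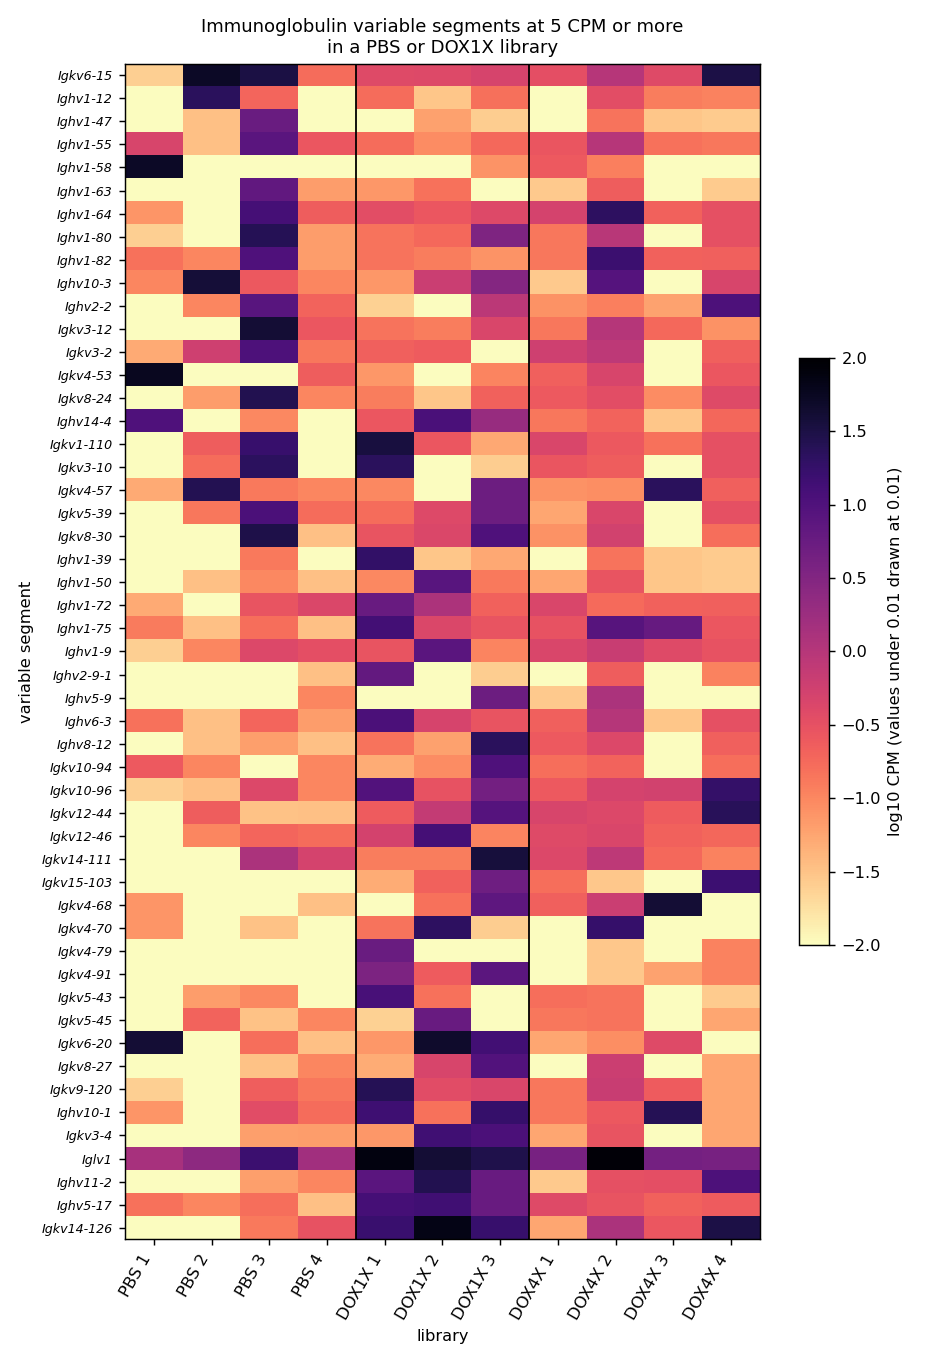
Each row is an immunoglobulin variable segment at 5 CPM or more in a PBS or DOX1X library, each column a library, and the colour is log10 CPM. Most segments are dark in 1 library, and Ighv5-17, Ighv11-2 and Igkv14-126 at the bottom are dark in all 3 DOX1X libraries.

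Constant regions are shared by many clones, and they lay on both sides of 0. The lambda constant gene Iglc1 held 131, 65.3 and 41.3 CPM in DOX1X and 1.7, 2.14, 11.3 and 3.54 CPM in PBS, a log2 difference of 4.09 (SE 1.23, edgeR adjusted p = 0.60). DOX4X 2 held 139.7 CPM of Iglc1, above every DOX1X library. Ighm, the constant region of IgM, held 502, 61.3, 171 and 63.1 CPM in PBS and 177, 693 and 262 CPM in DOX1X, and the groups overlapped. The kappa constant gene Igkc also overlapped, with a log2 difference of 0.58 (SE 0.82). Igha, Ighd and Iglc2 overlapped as well, with log2 differences of 1.79 (SE 1.95), 0.63 (SE 0.64) and 1.08 (SE 0.43). Ighg1 and Iglc3 differed by -0.13 and -0.18, and Ighg2b by -6.71 (SE 2.77), which rests on PBS 3 at 82.8 CPM with the other PBS libraries at 0. Jchain, which joins IgM and IgA into polymers, held 62.5, 51.5, 76.3 and 0.133 CPM in PBS and 134, 108 and 106 CPM in DOX1X. Its log2 difference was 1.29 (SE 1.25). Summed heavy variable segments came to 66.8, 64.4, 87.2 and 5.84 CPM in PBS and to 109, 82.2 and 81.2 CPM in DOX1X. PBS 4 held the least heavy variable RNA, and PBS 3 lay within the DOX1X range. In a bulk library, fewer cells of a type and less RNA per cell cannot be told apart.

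Bone matrix and protease genes lay lower after the single dose without passing the threshold. Spp1, which encodes osteopontin, held 7753, 8849, 9642 and 5641 CPM in PBS and 3890, 4042 and 4088 CPM in DOX1X. All 3 treated libraries lay below all 4 controls, at about the same level as each other. The log2 difference was -0.99 (SE 0.23, edgeR adjusted p = 0.52, DESeq2 adjusted p = 0.0085). Fam20c, the Golgi kinase that phosphorylates osteopontin and other secreted proteins, held 109.7, 81.3, 88.4 and 39.4 CPM in PBS and 34.0, 33.0 and 32.4 CPM in DOX1X, a log2 difference of -1.27 (SE 0.26, edgeR adjusted p = 0.50). PBS 4 stood closest to the treated libraries for both genes. With it left out, Fam20c differed by -1.49 on the log2 scale and passed edgeR's threshold.

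Mmp13, the collagenase of bone-forming cells, held 3193, 3852, 4373 and 3663 CPM in PBS and 1558, 2093 and 2528 CPM in DOX1X, a log2 difference of -0.87 (SE 0.20). Mmp9, a gelatinase also made by osteoclasts and neutrophils, held 123.9, 65.9, 63.9 and 48.5 CPM in PBS and 36.7, 36.0 and 21.4 CPM in DOX1X, a log2 difference of -1.27 (SE 0.29). Timp1, an inhibitor of such proteases, held 55.3, 59.0, 68.2 and 48.7 CPM in PBS and 33.2, 47.2 and 39.3 CPM in DOX1X, a log2 difference of -0.54 (SE 0.14). No DOX1X library reached the PBS range for any of the 3 genes, and each had an edgeR adjusted p of 0.52. DOX1X 3, on the other flow cell, was the highest of its group for Mmp13 and the lowest for Mmp9. Neutrophil markers lay higher in DOX1X, as given below, while Mmp9 lay lower, and which cells its RNA came from was not tested.

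**Figure D3:**
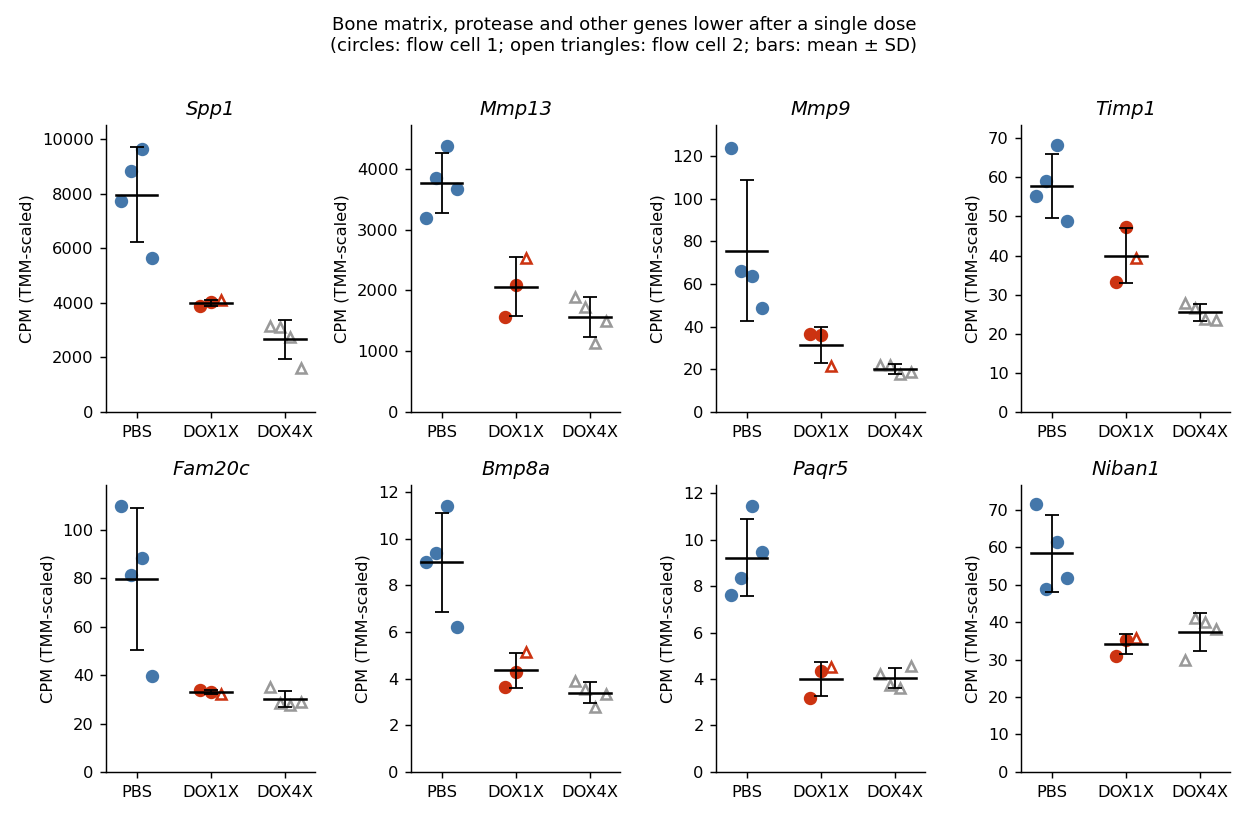
CPM of 8 genes in each library, on linear axes from 0, with circles for flow cell 1, open triangles for flow cell 2, and bars for the mean ± SD of each group. For Spp1, Mmp13, Mmp9, Timp1, Fam20c, Bmp8a, Paqr5 and Niban1 the 3 DOX1X libraries lie below the 4 PBS libraries.

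The 250 bases before the first listed start of Spp1 and Mmp13 are shown because both genes are known targets of Runx2, the osteoblast transcription factor. Capitals mark matches on either strand to ACCACA, a core bound by Runx factors, and to TGANTCA, a site of AP-1. Sequences are from RefSeq on GRCm38.p6, both on the plus strand, Spp1 at chr5:104434861-104435110 and Mmp13 at chr9:7272264-7272513.
Spp1: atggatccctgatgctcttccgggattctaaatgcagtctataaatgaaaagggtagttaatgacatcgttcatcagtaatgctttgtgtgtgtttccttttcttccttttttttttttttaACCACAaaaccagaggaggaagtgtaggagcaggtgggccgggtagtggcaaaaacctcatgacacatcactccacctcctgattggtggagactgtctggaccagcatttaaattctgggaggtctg
Mmp13: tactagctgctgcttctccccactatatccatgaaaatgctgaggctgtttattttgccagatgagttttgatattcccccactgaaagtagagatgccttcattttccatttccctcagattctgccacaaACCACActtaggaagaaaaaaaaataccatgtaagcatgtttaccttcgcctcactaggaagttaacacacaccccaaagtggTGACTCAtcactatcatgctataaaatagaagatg
Spp1 holds 1 Runx match and 0 AP-1 matches, and Mmp13 holds 1 of each. Spp1 has 2 listed starts, and the window of the second holds 0 of each. Among 32851 promoters of the same length, 14.0% hold the Runx letters and 6.75% the AP-1 letters. The windows of Timp1, Fam20c, Bmp8a and Paqr5 hold neither, and no promoter was listed for Mmp9. Runx2 itself held 187 to 206 CPM in PBS and 172 to 202 CPM in DOX1X, with a log2 difference of -0.06 (95% interval -0.23 to 0.11).

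Among the 26 tested genes of osteoblast lineage and bone matrix, 5 lay higher and 21 lower, where 51.2% of all genes lay above 0 and 48.8% below, with a median log2 difference of -0.14. At an unadjusted p under 0.05, 6 lay lower and 0 higher, against 3.74% and 3.42% of all genes, and these were Spp1, Fam20c, Mmp13, Bmp8a, Dmp1 and Postn. None passed the adjusted threshold. This list and those below were chosen with earlier results of these data known. Their shares beside all genes are therefore descriptions and no independent support. Sp7 and Runx2, the transcription factors of the lineage, differed by 0.05 and -0.06 on the log2 scale. Alpl, the alkaline phosphatase of mineralization, held 1366, 1140, 767 and 521 CPM in PBS and 723, 869 and 663 CPM in DOX1X, and the groups overlapped. Col1a1, the main collagen of bone, ran from 832 CPM in PBS 4 to 6436 CPM in PBS 1 and from 1956 to 4191 CPM in DOX1X. Its log2 difference was -0.20 (SE 0.57), and it was 0.18 without PBS 1. Bglap, which encodes osteocalcin and has near-identical neighbours, held 43 to 162 CPM in PBS and 74.3 to 128 CPM in DOX1X. The median of the list was -0.30 without PBS 4 and -0.08 without DOX1X 3.

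Matrix proteases and their inhibitors had 15 of 24 members lower, where 48.8% of all genes lay lower. At an unadjusted p under 0.05, 7 members lay lower and 0 higher, against 3.74% and 3.42% of all genes. Besides Mmp9 and Timp1, these included Ctsb, a lysosomal cysteine protease, at 2230 to 2544 CPM in PBS and 1914 to 2056 CPM in DOX1X, a log2 difference of -0.29 (SE 0.08). Adamts1, a secreted protease that cleaves proteoglycans, held 598 to 739 CPM in PBS and 457 to 503 CPM in DOX1X, a log2 difference of -0.50 (SE 0.16). The list's median was -0.16, and it ran from -0.25 without PBS 4 to -0.06 without PBS 1. Collagens and other matrix genes had 27 of 32 members lower, with 4 at an unadjusted p under 0.05 (3.74% of all genes) and a median of -0.22 (-0.14 without PBS 3). Sdc3, a cell-surface proteoglycan, held 431 to 591 CPM in PBS and 350 to 392 CPM in DOX1X. The small proteoglycan Lum held 282 to 390 CPM in PBS and 187 to 273 CPM in DOX1X, and the lysyl oxidase Loxl1, which cross-links elastin, held 355 to 469 and 269 to 352 CPM. Fmod, another small proteoglycan, had the lowest log2 difference of the list, -1.39 (SE 0.55), carried by PBS 1 and 2 at 33.0 and 39.4 CPM against 7.54 and 7.51 CPM in PBS 3 and 4.

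Genes outside these lists were among the 10 lower genes with the smallest p, taken from genes of at least 5 CPM whose groups did not overlap. Paqr5, a membrane receptor for progesterone, held 7.61, 8.38, 11.5 and 9.47 CPM in PBS and 3.18, 4.37 and 4.52 CPM in DOX1X, a log2 difference of -1.20 (SE 0.20, edgeR adjusted p = 0.44). Niban1, a protein induced by cell stress, held 71.5, 48.9, 61.4 and 51.8 CPM in PBS and 30.9, 35.3 and 35.8 CPM in DOX1X, a log2 difference of -0.78 (SE 0.14). Evx1os, which overlaps the homeobox gene Evx1 on the opposite strand, held 9.11, 7.14, 11.7 and 6.37 CPM in PBS and 1.76, 0.97 and 1.92 CPM in DOX1X, a log2 difference of -2.46 (SE 0.47). The library kit does not mark strand, so reads of Evx1 and Evx1os cannot be told apart. Evx1 itself differed by -2.21 on the log2 scale (SE 0.41, chosen after its values were seen).

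The signalling gene Bmp8a, a bone morphogenetic protein, held 9.01, 9.38, 11.4 and 6.24 CPM in PBS and 3.65, 4.31 and 5.15 CPM in DOX1X, a log2 difference of -1.04 (SE 0.22). Etv5, an ETS transcription factor downstream of growth factor receptors, held 65.7, 50.1, 50.04 and 50.3 CPM in PBS and 36.9, 40.4 and 33.5 CPM in DOX1X, a log2 difference of -0.55 (SE 0.12). Efnb3, an ephrin ligand, held 18.4 to 30.4 CPM in PBS and 11.1 to 16.4 CPM in DOX1X. The magnesium transporter Nipal1 held 5.57 to 10.7 CPM in PBS and 1.49 to 3.73 CPM in DOX1X, a log2 difference of -1.67 (SE 0.37). Rgl1, an exchange factor for Ral, and Lurap1l had log2 differences of -0.40 and -0.81. All 10 of these lower genes had an edgeR adjusted p from 0.44 to 0.52 and DESeq2 called every one of them. Of all 17801 genes it tested, DESeq2 called 34 lower and 15 higher. The 10 genes were chosen by their small p in these same counts, so its calls are no independent support.

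Among genes of at least 5 CPM whose groups did not overlap, with receptor segments and loci known by clone names left out, the 10 higher genes with the smallest p had log2 differences from 0.33 to 0.69. Below that level differences were larger for some genes, such as Xcl1 at 2.37. H1f2, a linker histone, held 52.4, 41.1, 44.4 and 40.8 CPM in PBS and 62.9, 83.1 and 66.0 CPM in DOX1X, a log2 difference of 0.66 (SE 0.12, edgeR adjusted p = 0.44, DESeq2 adjusted p = 0.0033). H2bc4, a core histone with near-identical copies, held 26.4, 24.9, 24.7 and 37.9 CPM in PBS and 42.7, 45.0 and 49.6 CPM in DOX1X, a log2 difference of 0.69 (SE 0.16). Both histone genes lay higher in every DOX1X library than in any PBS library, which the rule for choosing genes required. PBS 4 was the highest control for H2bc4. Lmo4, a LIM-domain cofactor of transcription, held 72.8, 70.0, 84.2 and 74.8 CPM in PBS and 104.2, 95.1 and 109.7 CPM in DOX1X, a log2 difference of 0.45 (SE 0.09). Rnaseh2a, the catalytic subunit of the enzyme that removes ribonucleotides from DNA, held 14.2 to 17.8 CPM in PBS and 20.1 to 22.4 CPM in DOX1X, a log2 difference of 0.43 (SE 0.10).

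The other higher genes were Kmt5c, a methyltransferase of histone H4, the splicing factor U2af1, the ribosomal protein genes Rps26 and Rpl27a, Rasgrp2, an exchange factor for Rap in platelets and other blood cells, and the locus Mir6236. Their log2 differences ran from 0.33 for Rpl27a to 0.67 for Mir6236. Ribosomal protein genes have many processed copies, and the treatment of shared reads is not given in the sources used here. With the blood-cell marker score as a covariate, the log2 differences were 0.72 for H1f2, 0.87 for H2bc4, 0.46 for Lmo4 and 0.31 for Rnaseh2a. DESeq2 called H1f2, H2bc4, Lmo4 and Mir6236 of these 10, which were likewise chosen by their small p in the same counts.

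**Figure D4:**
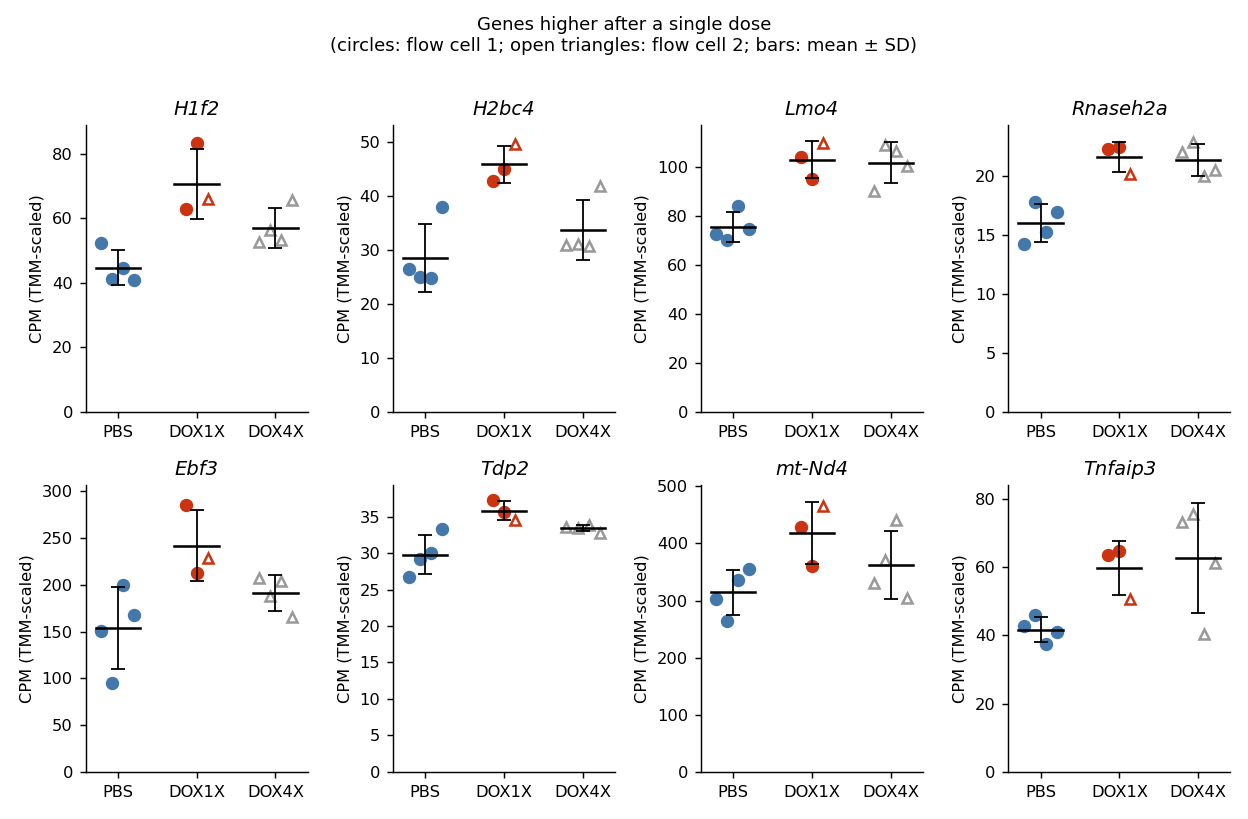
CPM of 8 genes in each library, on linear axes from 0, with circles for flow cell 1, open triangles for flow cell 2, and bars for the mean ± SD of each group. In H1f2, H2bc4, Lmo4, Rnaseh2a, Ebf3, Tdp2, mt-Nd4 and Tnfaip3 the DOX1X libraries lie above the PBS libraries, by less than 1 on the log2 scale.

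The niche factors stood close to their control levels. Of 21 stromal identity and niche genes, 9 lay higher and 12 lower, with a median log2 difference of -0.01. Cxcl12 held 58209, 53117, 51113 and 52481 CPM in PBS and 59804, 52225 and 48120 CPM in DOX1X, a log2 difference of -0.01 with a 95% interval of -0.28 to 0.26. Kitl, the Kit ligand, differed by 0.18 (95% interval -0.04 to 0.41), Vcam1 by 0.03 (-0.27 to 0.33), Angpt1 by -0.06 (-0.33 to 0.20), Il7 by -0.01 (-0.38 to 0.35) and Csf1 by 0.10 (-0.18 to 0.38). Each of these intervals spans 0. Lepr, whose Cre marks the cells, held 7661, 5680, 7144 and 5431 CPM in PBS and 6630, 5655 and 3939 CPM in DOX1X, a log2 difference of -0.26 (SE 0.18), with DOX1X 3 the lowest. Ebf3, a transcription factor that keeps the marrow cavity open, was the list member with the smallest p, at 151, 94.9, 200 and 168 CPM in PBS and 285, 213 and 228 CPM in DOX1X, a log2 difference of 0.66 (SE 0.20, edgeR adjusted p = 0.60). Foxc1, a partner in niche maintenance, differed by -0.30 (SE 0.14), and Pdgfra by -0.26 (SE 0.13).

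Adipocyte genes had 10 members higher and 12 lower of 22 tested, with a median of -0.02. Adipoq, the hormone adiponectin that these stromal cells also make, differed by 0.05 (95% interval -0.23 to 0.34), and Pparg, the adipocyte master regulator, by 0.02 (-0.30 to 0.34). Zfp423, a regulator of preadipocytes, held 72.7 to 93.1 CPM in PBS and 61.1 to 68.1 CPM in DOX1X, a log2 difference of -0.29 (SE 0.11). Lep was at 0 counts in all 7 libraries.

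No p53 target passed the adjusted threshold 8 weeks after the injection. Of 29 p53 targets, 18 lay higher and 11 lower, with a median log2 difference of 0.07, which was -0.01 without PBS 2. Cdkn1a, the cell cycle inhibitor p21, held 109.6, 133, 208 and 124 CPM in PBS and 159, 109.8 and 201 CPM in DOX1X, so the groups overlapped (log2 difference 0.13, 95% interval -0.44 to 0.70). Mdm2, the ubiquitin ligase of p53, differed by -0.01 (-0.19 to 0.17). Pidd1, a death-domain target of p53, was the member past an unadjusted p of 0.05, where 3.42% of all genes lay higher. It held 2.60 to 4.94 CPM in PBS and 4.18 to 8.10 CPM in DOX1X. Gdf15, a secreted stress factor, differed by 0.65 (SE 0.31).

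Genes for the drug's targets and export lay on both sides of 0. Top2b, the topoisomerase II of non-dividing cells, differed by -0.02 on the log2 scale (95% interval -0.28 to 0.24). The drug exporter Abcb1a differed by -0.22 (SE 0.21) and Abcg2, another exporter, by -0.26 (SE 0.11). Tdp2, the enzyme that frees topoisomerase II from DNA ends, held 26.8, 29.1, 30.0 and 33.3 CPM in PBS and 37.2, 35.7 and 34.6 CPM in DOX1X, a log2 difference of 0.27 (SE 0.08). Of the 17 genes of this list, 1 lay higher and 1 lower at an unadjusted p under 0.05, against 3.42% and 3.74% of all genes. The list's median was -0.02. DNA repair genes had 23 of 33 higher, 3 of them at an unadjusted p under 0.05 (3.42% of all genes), with a median of 0.08. Prkdc, the DNA-dependent protein kinase of end joining, held 24.0 to 30.4 CPM in PBS and 33.3 to 38.8 CPM in DOX1X, a log2 difference of 0.37 (SE 0.13). The checkpoint kinase Chek2 differed by 0.40 (SE 0.17). With the blood-cell marker score as a covariate the repair list's median was -0.12, and it was 0.0079 without DOX1X 2 and 0.14 without DOX1X 3.

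Cell division genes lay higher in all 38 members, with a median log2 difference of 0.56, against 51.2% of all genes above 0. None passed the adjusted threshold, and 3 had an unadjusted p under 0.05, against 3.42% of all genes. Mki67, a marker of cycling cells, held 19.6, 27.97, 19.7 and 10.1 CPM in PBS and 41.2, 43.6 and 15.6 CPM in DOX1X, and Top2a, the topoisomerase II of dividing cells, held 43.2, 65.0, 42.5 and 18.7 CPM in PBS and 90.2, 82.0 and 34.8 CPM in DOX1X. The high values were in DOX1X 1 and 2, the same libraries in which the averaged blood-cell score was high, and DOX1X 3 lay within the PBS range for both genes. The list's median was 0.35 without DOX1X 2 and 0.88 without PBS 2. With the blood-cell marker score as a covariate it was -0.29, Mki67 was -0.32 and Top2a -0.28. Whether the dividing cells were stromal was not tested.

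Of 28 tested senescence and secretory genes, 18 lay higher and 10 lower, with a median of 0.14 (0.23 without PBS 1). Cdkn2a, which encodes the senescence marker p16, was too low to be tested, at 0.0325 to 0.0507 CPM in PBS and 0 to 0.131 CPM in DOX1X. Il6 held 2.89 to 5.66 CPM in PBS and 4.18 to 5.10 CPM in DOX1X, and the chemokine Ccl2 differed by 0.44 (SE 0.27). Among antioxidant genes, 14 of 29 lay higher, and the members with the smallest p went in both directions. Txn1, thioredoxin, held 94.3 to 106 CPM in PBS and 110.9 to 131 CPM in DOX1X, a log2 difference of 0.24 (SE 0.08), while Srxn1, sulfiredoxin, held 41.6 to 50.7 CPM in PBS and 36.1 to 37.3 CPM in DOX1X, a log2 difference of -0.31 (SE 0.10).

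Interferon response genes had 19 of 28 members higher, with a median of 0.07. At an unadjusted p under 0.05, 0 lay higher and 0 lower, against 3.42% and 3.74% of all genes. The median was -0.14 without DOX1X 3 and 0.24 without DOX1X 1. Mx1, an antiviral GTPase, held 0.507 to 1.47 CPM in PBS and 0.807, 1.03 and 4.39 CPM in DOX1X. NF-kB response genes had 12 of 21 higher, with a median of 0.11 (0.066 without DOX1X 3). Tnfaip3, the feedback inhibitor A20, held 42.6, 45.9, 37.4 and 41.0 CPM in PBS and 63.6, 64.8 and 50.7 CPM in DOX1X, a log2 difference of 0.52 (SE 0.18, edgeR adjusted p = 0.62). Immediate early genes, which tissue dissociation can induce, had 19 of 27 higher, with a median of 0.09 (0.033 without DOX1X 3 and 0.21 without PBS 4). Gadd45b differed by 0.39 (SE 0.13) and Nr4a1 by -0.43 (SE 0.16).

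Mitochondrially encoded transcripts lay higher in all 11 tested members, with a median log2 difference of 0.34 and 5 at an unadjusted p under 0.05, where 3.42% of all genes lay higher at that p. Transcripts of nuclear genes for the same respiratory complexes had 21 of 36 higher and a median of 0.02. The complex I subunit mt-Nd4 held 302, 264, 336 and 355 CPM in PBS and 429, 360.03 and 466 CPM in DOX1X, a log2 difference of 0.41 (SE 0.14). mt-Nd6, the subunit read from the other mitochondrial strand, held 60.1, 55.1, 57.9 and 59.0 CPM in PBS and 79.3, 63.0 and 84.8 CPM in DOX1X, a log2 difference of 0.38 (SE 0.12). The groups did not overlap for 2 of the 11 members, against 3.18% of all genes, with DOX1X 2 the lowest of its group for mt-Nd4 and mt-Nd6. The list's median ran from 0.25 to 0.43 with single libraries left out, and was 0.41 with the blood-cell marker score as a covariate. Nuclear subunits such as Ndufb3 and Cox5b differed by 0.17 and 0.13.

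Markers of other marrow cells differed in both directions. All 17 neutrophil markers lay higher, with 7 at an unadjusted p under 0.05, against 3.42% of all genes. Their median log2 difference was 1.58, and their summed level was 196 to 671 CPM in PBS and 256 to 946 CPM in DOX1X. Lcn2, a neutrophil granule protein, held 1.78, 3.67, 2.07 and 2.23 CPM in PBS and 11.6, 8.49 and 3.99 CPM in DOX1X, and Ltf, lactoferrin, held 0.330, 7.54, 3.30 and 5.00 CPM in PBS and 43.3, 34.2 and 10.46 CPM in DOX1X. All 14 tested erythroid markers lay higher, with a median of 0.93 and a summed level of 130 to 281 CPM in PBS and 185 to 551 CPM in DOX1X. Ahsp was at 0 in all 7 libraries. All 22 B lineage markers lay higher, with a median of 0.73 and a summed level of 127 to 561 CPM in PBS and 341 to 857 CPM in DOX1X. Dntt, which adds bases to immunoglobulin joints in B cell precursors, held 1.37, 0.634, 2.40 and 1.63 CPM in PBS and 8.27, 3.79 and 1.79 CPM in DOX1X. Summed neutrophil and erythroid markers were highest in DOX1X 1 and 2, summed B lineage markers were highest in DOX1X 2, and DOX1X 1 lay below PBS 1 for the B lineage sum.

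Plasma cell markers had 10 of 13 members higher and a median of 0.69 (0.44 without DOX1X 2), with a summed level of 854 to 1545 CPM in PBS and 1387 to 1759 CPM in DOX1X. T and natural killer cell markers had 21 of 22 members higher, a median of 1.12 (0.64 without DOX1X 1), and a summed level of 16.6 to 26.5 CPM in PBS and 23.5 to 45.0 CPM in DOX1X. Xcl1, a chemokine of these cells, held 0.051 to 0.10 CPM in PBS and 0.343 to 0.421 CPM in DOX1X, and Ccl5 held 0.534 to 1.14 and 2.34 to 2.57 CPM. Ccl5 did not overlap between the groups in any library, and its log2 difference was 1.56 (SE 0.36, edgeR adjusted p = 0.52, DESeq2 adjusted p = 0.033). Monocyte and macrophage markers had 10 of 16 members higher and a median of 0.09 (-0.13 without PBS 4), with a summed level of 3000 to 4027 CPM in PBS and 2898 to 3809 CPM in DOX1X. Megakaryocyte markers lay higher in all 10 members with a median of 1.14, which was -0.10 without DOX1X 2. In that library Pf4, platelet factor 4, held 223 CPM and Tubb1, a platelet tubulin, 125 CPM.

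Vessel markers mostly lay lower, and none passed the adjusted threshold. Endothelial markers had 19 of 21 members lower and a median of -0.58, with a summed level of 256 to 947 CPM in PBS and 343 to 597 CPM in DOX1X. The median was -0.18 without PBS 2 and -0.90 without DOX1X 3. At an unadjusted p under 0.05, 0 members lay higher and 0 lower, against 3.42% and 3.74% of all genes. The list's mean log2 CPM had an SD of 0.63 between libraries of a group. Cdh5, the cadherin of endothelial junctions, held 16.9, 19.3, 11.7 and 4.14 CPM in PBS and 5.31, 5.52 and 11.6 CPM in DOX1X. Vwf, made by endothelium and by megakaryocytes, went the other way in DOX1X 2, at 141 CPM. Pericyte and smooth muscle markers lay lower in all 12 members with a median of -0.54, which was -0.23 without PBS 1, -0.83 without DOX1X 3 and 0.17 with the blood-cell marker score as a covariate. Their summed level was 708 to 1997 CPM in PBS and 623 to 1037 CPM in DOX1X. Des, an intermediate filament of muscle and pericytes, held 32.7 to 38.3 CPM in PBS and 24.5 to 29.5 CPM in DOX1X. Osteoclast markers had 4 of 6 tested members lower, and Calcr, Ocstamp and Dcstamp were at 0 in all 7 libraries. Schwann cell markers had 3 of 6 on either side, and Sox10 and Gfra3 were at 0. Whether other marrow cells in the sort take part in the differences above was not tested.

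**Figure D5:**
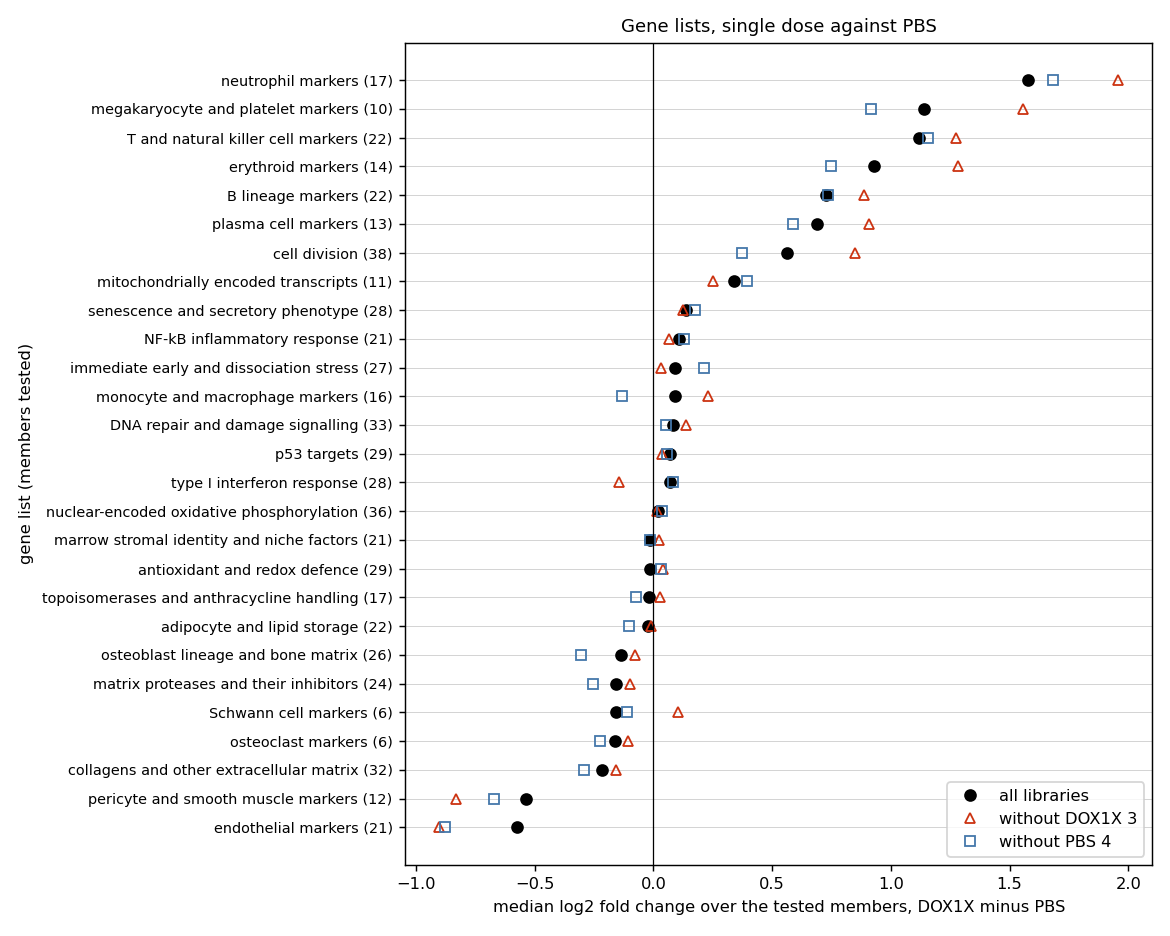
Median log2 fold change, DOX1X minus PBS, over the tested members of each gene list (number in brackets), with all libraries (black circles), without DOX1X 3 (red triangles) and without PBS 4 (blue squares). Neutrophil markers lie highest, at 1.58, and endothelial markers lowest, at -0.58, and most pathway lists lie near 0.

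Both schedules share the PBS controls, so they are set side by side only as values. All DOX4X libraries were on flow cell 2 and all PBS libraries on flow cell 1. Flow cell and schedule therefore cannot be told apart in DOX4X against PBS. In DOX4X against DOX1X, DOX1X 1 and 2 were on flow cell 1 and the other libraries on flow cell 2. DOX4X against PBS called 26 genes (0.146%), all lower, and Spp1, Mmp13, Mmp9, Timp1, Fam20c, Bmp8a and Paqr5 were among them. Their log2 differences after the single dose and after 4 doses were -0.99 and -1.58 for Spp1, -0.87 and -1.27 for Mmp13, -1.27 and -1.92 for Mmp9, -0.54 and -1.18 for Timp1, and -1.27 and -1.41 for Fam20c. Bmp8a stood at -1.04 and -1.40, and Paqr5 at -1.20 and -1.19. Tested directly between the schedules, 1 gene (0.00561%) passed edgeR's threshold, and it was Ighv5-17. Timp1 had the smallest unadjusted p of these 7 genes in that test, with a log2 value of -0.65 from DOX1X to DOX4X and an edgeR adjusted p of 0.89. The bone matrix list had a median of -0.14 after 1 dose and -0.42 after 4, and the matrix list -0.22 and -0.48. Endothelial markers lay at -0.58 and 0.82, a contrast that was not tested as a list.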

How the data were processed

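The authors deposited whole-number counts per gene for 24718 genes in 11 libraries of poly(A) RNA made with the SMART-Seq v4 Plus kit, per the labels' protocols. The submitters' processing notes name build GRCm39 and list STAR 2.7.9a and featureCounts 2.0.1 besides Trim Galore 0.6.6, SAMtools 1.17, FastQC 0.11.5 and MultiQC 1.7. Which annotation was used, whether strand was used and how multiply mapped reads were treated is not given in the sources used here. Counts of genes with near-identical copies or antisense partners are uncertain.

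Groups came from the treatment labels. Genes were kept by filterByExpr of edgeR 4.0.16 (R 4.3.3), which left 17838. The 11 libraries were scaled by TMM, fitted with group means, and the DOX1X minus PBS contrast was tested two-sided by quasi-likelihood, adjusted by the Benjamini-Hochberg method, with a threshold of 0.05. SE is the fold change divided by the square root of F. The blood-cell marker score is the centred mean log2 CPM (prior count 2) of 4 marker lists. The 27 lists hold 606 entries, of which 581 were tested, and are described by counts and medians.

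Named genes were those past the threshold, the 10 higher and 10 lower with the smallest p among genes of at least 5 CPM whose groups do not overlap (leaving out antigen receptor segments and names of clones), up to 4 members of each of 5 lists and 2 of the other lists, 30 key genes, and the segments of the family of a called segment. Members, lists and this rule were chosen with earlier results of these data known. Alternatives were other scalings and filters, DESeq2 1.42.0, limma-voom (limma 3.58.1), flow cell and blood-cell covariates, the replicate block and each library left out. The procedure was tested on simulated data. Motifs were searched in 250 bases before the start, on both strands, in RefSeq promoters of GRCm38.p6, where 6 of 7 genes looked up were found. No 2 libraries were near-identical.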

Additional observations from a re-analysis of the deposited data

Results flagged for a closer look

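In the 4 PBS libraries, 1 library stood far from the other 3 for 7 of the 111 named genes. The gap of that library to its nearest neighbour, as a share of the group's range, was 0.874 for H2bc4 (PBS 4, the highest), 0.981 for Etv5 (PBS 1, the highest), 0.945 for Cdkn2a (PBS 1), 0.882 for Top2b (PBS 4, the lowest), 0.851 for Pcna (PBS 2, the highest), 1 for Ighv5-9 (PBS 4) and 0.875 for Ighv5-9-1 (PBS 4). These values pass Dixon's 95% limit for 4 samples, and chance passes it in about 1 of 20 groups. Cdkn2a, Ighv5-9 and Ighv5-9-1 rest on a few counts. Without PBS 4 the log2 difference of H2bc4 was 0.85, and without PBS 1 that of Etv5 was -0.45.

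Ighv5-17 differed between the schedules. DOX1X held 5.81 to 14.0 CPM and DOX4X 0.211 to 0.385 CPM, and the direct test between them gave an adjusted p of 4.93e-04 with edgeR's quasi-likelihood test. All DOX4X libraries and DOX1X 3 were on flow cell 2, and DOX1X 1 and 2 on flow cell 1.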

How the results depend on the processing

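Ighv5-17 kept its direction and its side of the threshold under every alternative in which it was tested, with a log2 fold change from 5.73 with the blood-cell marker covariate to 6.83 with flow cell as a covariate. The counts of genes higher and lower were 15 and 34 with DESeq2, 3 and 2 on flow cell 1 alone, and 0 and 0 with marker and immunoglobulin genes left out, which removes Ighv5-17 by construction (575 higher and 648 lower at an unadjusted p under 0.05 with edgeR). With single libraries left out they were 1 to 2 and 0 to 1. The other scalings, filters, prior, threshold, covariates, compared groups alone and limma-voom gave 1 and 0. Only DOX1X holds libraries of both flow cells, so the flow cell covariate rests on DOX1X 3 against DOX1X 1 and 2. For fold changes, that fit and flow cell 1 alone come close to leaving out DOX1X 3. Neither separates flow cell from that mouse. Same-numbered PBS and DOX1X libraries deviated from their group means with correlations of -0.02, 0.10 and -0.03. Of 3 DOX1X libraries, 1 matched its own number best. With so few libraries, these values cannot decide whether the numbers pair the mice. With the replicate number as a block, the counts were 4 (Ighv5-17, H2bc4, Ighv11-2, Igkv14-126) and 2 (Evx1os, Spp1). Between the schedules, under alternatives added after seeing the data, 1 gene was called, but 2 with the replicate block, 27 with DESeq2, 0 without marker genes and 1 to 2 with single libraries left out.

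Some differences changed sign and others moved without changing sign, and the cause was not tested. Many were near 0 in the edgeR fit with all libraries and no covariate. In that fit Hba-a1 stood at 1.26, Tubb1 at 1.82, Vwf at 1.29 and Ighv5-4 at 1.85. Acp5 and Itgb3 stood at 0.74, Top2a at 0.70 and Mki67 at 0.79. With the filter of 5 CPM in 3 libraries, the log2 values were Cxcl12 0.018, Il7 0.013, Mdm2 0.018 and Top2b 0.0073, and the osteoclast median was 0.33. With the replicate block they were Cxcl12 0.014, Il7 0.069, Vcam1 -0.0092, Pparg -0.013 and Mdm2 0.016. With flow cell as a covariate, and then on flow cell 1 alone, they were Cxcl12 0.060 and 0.057, Angpt1 0.023 and 0.019, Col1a1 0.063 and 0.061, Cdkn1a -0.093 and -0.097, Mdm2 0.0085 and 0.0052, Top2b 0.079 and 0.076, the Schwann median was 0.10 and 0.10, and Ighv5-4 was -2.02 with the covariate. With the blood-cell covariate they were Cxcl12 0.029, Il7 0.082, Vcam1 -0.022, Sp7 -0.062, Top2a -0.28, Mki67 -0.32, Il6 -0.16, Hba-a1 -0.032 and Acp5 -0.17. The medians were then -0.11 for topoisomerases, -0.12 for DNA repair, -0.29 for cell division, 0.18 for B lineage, 0.19 for T and natural killer cells, -0.067 for erythroid, 0.36 for neutrophil, -0.57 for monocyte, 0.17 for pericyte and -0.47 for Schwann markers. The score is made from the B lineage, erythroid, neutrophil and monocyte lists. Lower values for these lists and for Hba-a1, an erythroid member, therefore follow from how the covariate was built. With limma-voom the log2 values were Cxcl12 0.055, Angpt1 0.030, Col1a1 0.034, Mdm2 0.031 and Ighv5-4 -1.78. With single libraries left out, the ranges were -0.039 to 0.13 for Adipoq, -0.23 to 0.023 for Angpt1, -0.41 to 0.082 for Bglap, -0.093 to 0.36 for Cdkn1a, -0.54 to 0.18 for Col1a1, -0.100 to 0.060 for Cxcl12, -2.02 to 2.43 for Ighv5-4, -0.042 to 0.29 for Il6, -0.092 to 0.12 for Il7. They were -0.21 to 1.06 for Itgb3, -0.065 to 0.033 for Mdm2, -0.066 to 0.13 for Pparg, -0.11 to 2.9e-04 for Runx2, -0.11 to 0.16 for Sp7, -0.10 to 0.079 for Top2b, -0.20 to 2.34 for Tubb1, -0.047 to 0.16 for Vcam1, -0.019 to 1.81 for Vwf. The medians ran from -0.0100 to 0.10 for p53 targets, from 0.64 to 1.27 for T and natural killer cells, from -0.28 to 0.10 for Schwann markers, from -0.10 to 0.094 for adipocyte genes, from -0.066 to 0.023 for niche genes.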
